A study of Mus musculus with 10 samples.

Results

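The transcription factors and cofactors that specify and maintain rod and cone photoreceptors were described in bulk RNA sequencing of mouse neuroretina, the neural layer of the eye without its pigmented epithelium. The set held 10 genes, Crx, Nrl, Nr2e3, Otx2, Thrb, Rorb, Rxrg, Neurod1, Mef2d and Samd7, taken by symbol from a table of 57186 genes, of which 22756 had a count and 11499 passed the filter on low counts. All 10 genes were in the table under a single identifier each, and all 10 passed the filter. Female C57BL6/JRj mice received 1 µL of graphitic carbon nitride nanoparticles (CNP, hg-C3N4 in the labels) in the vitreous, or the saline vehicle alone (PBS), the particles being at 1 mg/mL in that vehicle. Both groups were thus injected, and both retinas were taken at day 14. There were 5 CNP libraries, numbered 4, 8, 12, 16 and 20 in the labels, and 5 PBS libraries, numbered 2, 6, 10, 14 and 18. The labels give no age, and they do not state for every library whether it came from a separate animal, so p-values measure the spread between these libraries.

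Photoreceptor identity is built in steps. OTX2 commits progenitors to the photoreceptor fate and switches on CRX, which drives photoreceptor genes in rods and cones alike. RORB and NRL then set the rod fate, NR2E3 acts below NRL to hold cone genes off in rods, and the nuclear receptors THRB and RXRG pattern the opsins of cones. Most of these genes stay on in the adult retina, where rods are by far the most numerous cells. OTX2 is also present in bipolar cells and in the pigment epithelium, NEUROD1 in some amacrine cells and RORB in several inner neurons, so that bulk values of these genes sum over cell types. In bulk tissue, fewer cells of a type and less RNA per cell cannot be told apart.

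The factors act on short DNA elements close to the start of their target genes, and several members are themselves such targets. The 250 bases before the annotated start were searched for TAATCC and TAATCT (the core of CRX and OTX2 sites, differing in the last letter), TGCTGAC (NRL), AGGTCA (nuclear receptors) and CAGATG (an E-box of the kind NEUROD1 binds), each on both strands. Promoters are from RefSeq on build GRCm38.p6. The 5 shown are those of Crx, Nrl and Nr2e3, each with a single start, and of Rorb and Samd7. The Rorb window was the one with the NRL element, and the Samd7 window holds TAATCC. Matches are in capitals, as read on the strand of the gene, so that GGATTA is TAATCC and AGATTA is TAATCT on the other strand.
Crx, chr7:15879956-15880205, minus strand: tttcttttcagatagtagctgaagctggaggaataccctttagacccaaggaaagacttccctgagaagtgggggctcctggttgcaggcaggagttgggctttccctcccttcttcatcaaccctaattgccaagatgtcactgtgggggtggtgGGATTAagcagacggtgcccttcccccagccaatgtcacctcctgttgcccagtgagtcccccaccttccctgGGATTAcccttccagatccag
Nrl, chr14:55524253-55524502, minus strand: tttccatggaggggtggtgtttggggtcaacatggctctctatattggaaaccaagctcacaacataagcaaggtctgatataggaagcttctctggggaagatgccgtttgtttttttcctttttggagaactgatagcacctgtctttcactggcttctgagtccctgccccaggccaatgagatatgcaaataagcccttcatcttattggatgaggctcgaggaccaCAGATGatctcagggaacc
Nr2e3, chr9:59950080-59950329, minus strand: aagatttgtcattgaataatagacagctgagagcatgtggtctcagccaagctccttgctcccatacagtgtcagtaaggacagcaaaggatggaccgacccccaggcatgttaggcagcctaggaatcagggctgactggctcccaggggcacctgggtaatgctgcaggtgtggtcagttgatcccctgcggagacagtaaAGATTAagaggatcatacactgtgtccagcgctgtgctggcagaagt
Rorb, chr19:19111197-19111446, minus strand: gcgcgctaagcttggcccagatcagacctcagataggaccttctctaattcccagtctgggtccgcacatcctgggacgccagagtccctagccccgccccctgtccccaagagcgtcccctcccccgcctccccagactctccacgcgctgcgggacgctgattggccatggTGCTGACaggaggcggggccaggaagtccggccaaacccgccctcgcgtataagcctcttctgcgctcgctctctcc
Samd7, chr3:30746043-30746292, plus strand: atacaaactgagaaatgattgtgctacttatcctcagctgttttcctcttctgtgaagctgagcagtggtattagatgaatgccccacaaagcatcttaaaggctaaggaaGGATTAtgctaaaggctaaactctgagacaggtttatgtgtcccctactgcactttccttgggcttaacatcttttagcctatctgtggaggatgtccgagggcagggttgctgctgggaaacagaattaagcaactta

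Among these windows, Crx held TAATCC in reverse at 94 and 21 bases before the start. Nrl held CAGATG at 19 bases and none of the other letters searched. In Nr2e3, TAATCT lay in reverse at 47 bases. The Rorb window shown, one of several annotated starts of that gene, held TGCTGAC at 77 bases, and in Samd7 TAATCC lay in reverse at 139 bases. All 10 members had a promoter entry, with 16 annotated starts in all, because 4 members have several. TAATCC was in the window of 4 of the 16 starts, of Crx, Otx2, Thrb and Samd7, against 6.25% of all 32817 RefSeq promoter windows of that length. TAATCT was in 2 of the 16 (7.30% of all windows), TGCTGAC in 1 (3.81%), AGGTCA in 2 (14.0%) and CAGATG in 2 (14.5%). A match is a description of letters and not a site of binding, and no test was made of these shares.

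The libraries held 3493667 to 5354649 counts with CNP and 3328518 to 5428697 with PBS, and a floor of 3 counts corresponded to 0.553 to 0.901 CPM. CPM, the count relative to library size, was scaled by TMM, a method that sets libraries to a common level of most genes. Markers of the labelled tissue were high, with Gnat1, the rod transducin alpha subunit, at 6177 ± 834 CPM with CNP and 6589 ± 1597 CPM with PBS (SD, n = 5 each). Transcripts listed for neighbouring tissues were counted in every library. The summed level of the 10 pigment epithelium genes that passed the filter was 963 to 2545 CPM with CNP and 508 to 2460 CPM with PBS. That of the 13 lens genes that passed it was 398 to 5019 CPM with CNP and 307 to 13097 CPM with PBS.

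Across the 10 libraries the members spanned a wide range of level. Set per kilobase of annotated exon, Nrl, the rod-determining basic leucine zipper protein, was highest at 311 ± 54.2 CPM per kilobase (SD over 10 libraries), followed by Nr2e3 at 208 ± 48.1. Nrl exceeded Nr2e3 in 10 of 10 libraries, although their ranges over libraries overlapped. Neurod1, a basic helix-loop-helix factor of photoreceptor survival, and Crx came next at 70.0 ± 11.7 and 67.7 ± 7.20 CPM per kilobase. These last 2 did not differ beyond their spread, with Neurod1 above Crx in 5 of 10 libraries. Rorb followed at 29.1 ± 4.42, Samd7 at 26.9 ± 2.47 and Otx2 at 21.7 ± 2.76 CPM per kilobase, with overlapping ranges between neighbours. The cone receptors stood lowest together with Mef2d, a MADS-box factor that binds alongside CRX: Rxrg at 6.62 ± 0.728, Thrb at 5.60 ± 0.528 and Mef2d at 4.94 ± 0.682 CPM per kilobase. Ranges over libraries were separate at 3 places in this order, between Nr2e3 and Neurod1, between Crx and Rorb, and between Otx2 and Rxrg. Polyadenylated RNA was reverse transcribed with barcoded primers, and reads drawn mainly from one transcript end would make length the wrong divisor. The sources used here do not state the coverage. The order depends on that divisor: undivided, mean CPM over the 10 libraries was 322 for Rorb, 214 for Crx and 191 for Neurod1, and 41.4 for Thrb, 29.6 for Mef2d and 15.2 for Rxrg, so that Rorb stood above Crx and Neurod1, and Rxrg was lowest.

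**Figure D1:**
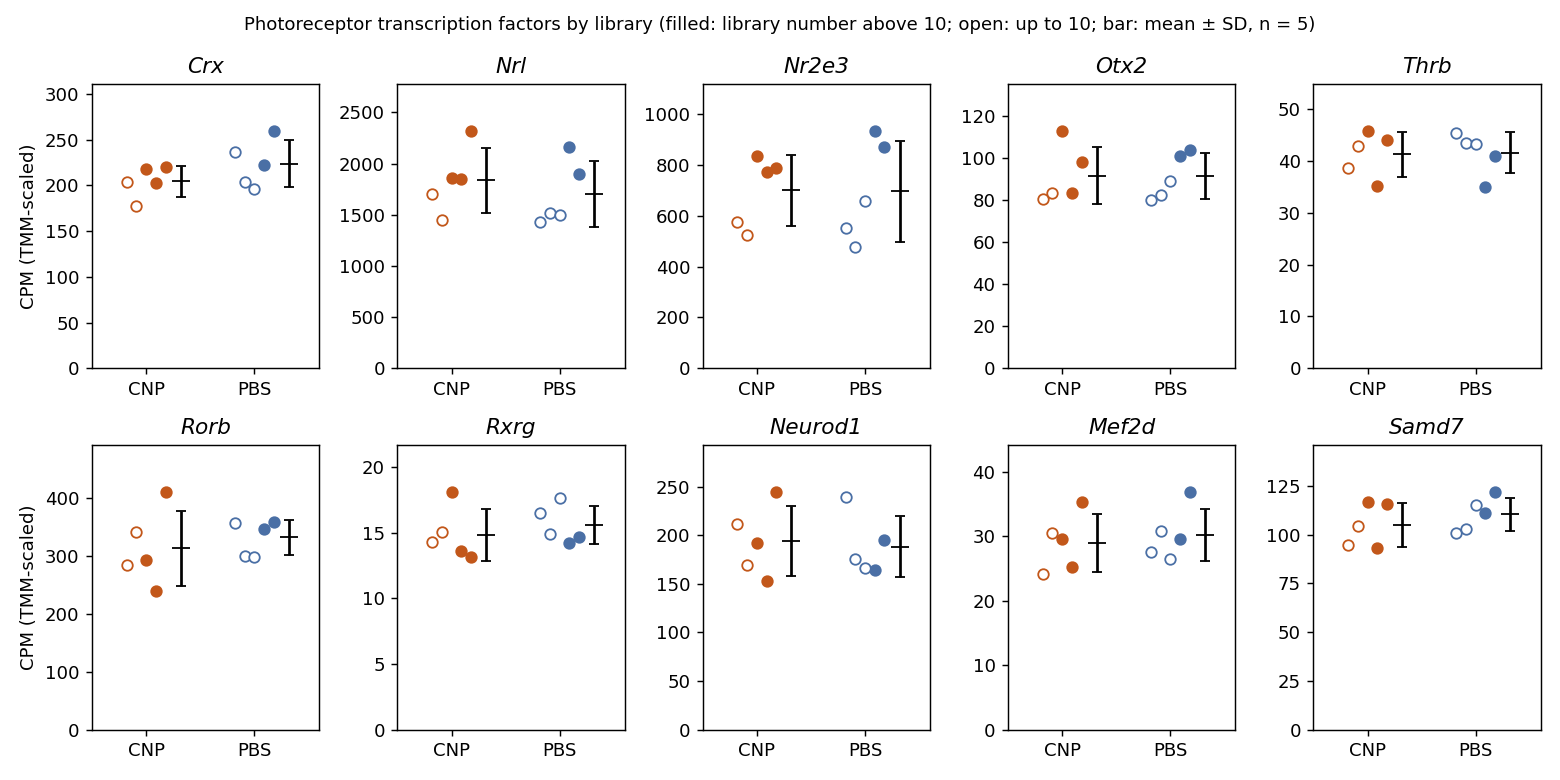
Level of each of the 10 members in CPM (linear axis from 0, one panel a member) in the 5 CNP and the 5 PBS libraries. Each point is a library, filled where its number is above 10 and open where it is up to 10, and bars give the mean ± SD. The groups overlap in every panel, and in Nrl and Nr2e3 the filled points lie above the open ones.

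CNP against PBS asked whether the nanoparticles changed retinal transcripts. None of the 10 members passed edgeR's quasi-likelihood test with Benjamini-Hochberg adjustment over all 11499 genes, in either direction, where 0% of all genes were called higher and 0% lower in CNP. Adjusted p was 0.9997 for all 10 members. No member had an unadjusted p under 0.05, as 1.19% of all genes did (137 genes), and no member's groups were free of overlap, as 0.287% of all genes were (33 genes). DESeq2 and limma-voom also called 0 genes, with 86 and 142 genes at an unadjusted p under 0.05. Of the 10 log2 fold changes 4 were positive and 6 negative, with a median of -0.04, beside -0.0036 over all tested genes. The 95% intervals of all 10 members lay within 1.5-fold either way, the widest bounds being 0.745-fold for Nr2e3 and 1.37-fold for Nrl.

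The homeodomain factors that act earliest did not pass the test. Otx2 (ENSMUSG00000021848) had 80.8, 83.2, 113, 83.3 and 98.2 CPM in CNP libraries 4, 8, 12, 16 and 20, against 79.9, 82.6, 89.3, 101 and 104 CPM in PBS libraries 2, 6, 10, 14 and 18. CNP 12 was the highest library and PBS 2 the lowest, with the groups overlapping throughout. The log2 fold change of Otx2 was 0.0052 (SE 0.12, 95% interval -0.25 to 0.26). Crx (ENSMUSG00000041578), the cone-rod homeobox gene that OTX2 activates, had 203, 178, 218, 203 and 220.3 CPM with CNP, against 236, 203, 196, 223 and 259 CPM with PBS, in the same order of libraries. All 5 CNP libraries lay below the PBS mean, and 3 PBS libraries lay above every CNP library, but the groups overlapped. Crx averaged 204 ± 16.9 CPM with CNP and 223 ± 25.6 CPM with PBS (SD, n = 5 each), and its log2 fold change of -0.13 (SE 0.10, 95% interval -0.35 to 0.10) had the smallest unadjusted p of the members, 0.236, from edgeR's test.

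The rod factors varied more between libraries than between groups. Nrl (ENSMUSG00000040632) had 1705, 1448, 1860.3, 1852 and 2318 CPM with CNP, against 1426, 1519, 1493, 2167 and 1899.6 CPM with PBS. CNP 20 and PBS 14 were the highest libraries and PBS 2 and CNP 8 the lowest. Nrl averaged 1837 ± 317 CPM with CNP and 1701 ± 319.5 CPM with PBS (SD, n = 5 each), a log2 fold change of 0.11 (SE 0.16, 95% interval -0.24 to 0.46). Nr2e3 (ENSMUSG00000032292), the orphan nuclear receptor that acts below NRL, had 577, 525, 836, 775 and 790.3 CPM with CNP, against 551, 476, 657, 934 and 870.3 CPM with PBS. The CNP libraries of Nr2e3 all lay between the lowest and the highest PBS library. Its log2 fold change was 0.0066 (SE 0.20, 95% interval -0.42 to 0.44).

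Rorb (ENSMUSG00000036192), the retinoid-related orphan receptor needed for Nrl in developing rods, had 284, 341, 292, 239 and 409 CPM with CNP, against 356, 299.5, 297, 347 and 359 CPM with PBS. All PBS libraries lay between CNP 16, the lowest, and CNP 20, the highest, and the log2 fold change was -0.08 (SE 0.14, 95% interval -0.38 to 0.22). Samd7 (ENSMUSG00000051860), a sterile alpha motif protein that works with Polycomb complexes in mouse rods to keep other genes silent, had 94.9, 104, 117, 93.1 and 116 CPM with CNP, against 101, 103, 115, 111 and 122 CPM with PBS. CNP 16 and CNP 4 were the lowest and PBS 18 the highest. Samd7 was among the steadiest members, with a log2 fold change of -0.07 (SE 0.10, 95% interval -0.28 to 0.14). Mef2d (ENSMUSG00000001419) had 24.1 to 35.3 CPM with CNP, against 26.4 to 36.8 CPM with PBS, and Neurod1 (ENSMUSG00000034701) had 153 to 244 CPM with CNP, against 164 to 239.6 CPM with PBS. Their log2 fold changes were -0.06 (95% interval -0.34 to 0.23) for Mef2d and 0.04 (95% interval -0.27 to 0.36) for Neurod1.

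The cone receptors were among the members with few counts. Thrb (ENSMUSG00000021779), whose retinal isoform turns on medium-wavelength opsin in mouse cones, had 38.6, 42.8, 45.8, 35.2 and 44.0 CPM with CNP, against 45.4, 43.5, 43.2, 35.0 and 41.0 CPM with PBS. The lowest libraries, PBS 14 and CNP 16, were one of each group. Its log2 fold change was -0.02 (SE 0.10, 95% interval -0.24 to 0.21), from 116 to 269 counts per library. Counts are per gene, so the retinal isoform of Thrb is not separated from the others. Rxrg (ENSMUSG00000015843), the retinoid X receptor that represses short-wavelength opsin with THRB in mouse, had 14.3, 15.1, 18.1, 13.6 and 13.2 CPM with CNP, against 16.5, 14.9, 17.7, 14.2 and 14.6 CPM with PBS. PBS values of Rxrg lay inside the range of CNP values, and the log2 fold change was -0.08 (SE 0.13, 95% interval -0.36 to 0.19), from 45 to 98 counts per library.

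**Figure D2:**
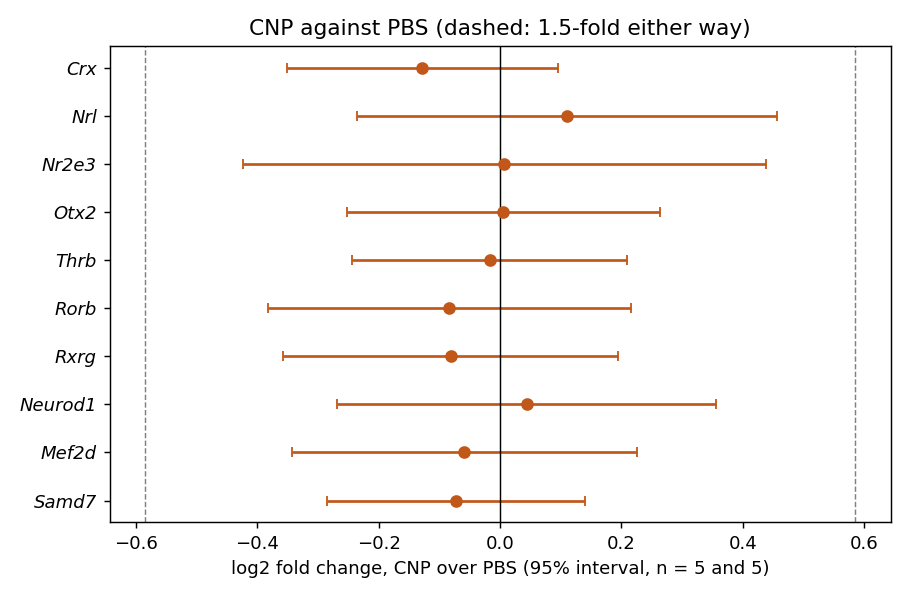
Log2 fold change of CNP over PBS for each member with its 95% interval from edgeR's quasi-likelihood fit (n = 5 libraries each), with dashed lines at 1.5-fold either way. All 10 intervals span 0 and lie between the dashed lines, from -0.42 at the low end of Nr2e3 to 0.46 at the high end of Nrl.

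Some members share their locus with another gene, and the labels and processing notes do not state whether counting used strand. Otx2os1, on the opposite strand to Otx2 with overlapping exons, held 259 to 336 counts per library with CNP and 242 to 313 with PBS, close to the 350 to 442 (CNP) and 320 to 477 (PBS) of Otx2 itself, so the value of Otx2 is uncertain to that extent. Cerkl, on the same strand as Neurod1 with overlapping exons, held 48 to 112 counts with CNP and 51 to 98 with PBS. Opposite Mef2d with overlapping exons, 1700113A16Rik held 25 to 40 counts per library with CNP and 16 to 33 with PBS, beside 98 to 178 of Mef2d itself over all libraries. Gm49154, on the same strand as Otx2, held 1 to 6 counts with CNP and 2 to 5 with PBS, and Gm7616, opposite Nr2e3 with no shared exon, 3 to 11 with CNP and 3 to 10 with PBS. Gm15507 at Nr2e3 and Gm48320 and Gm48321 at Thrb had 0 counts, and Gm24140 at Thrb and Gm26755 at Neurod1 were not analysed here. Crx, Nrl, Rorb, Rxrg and Samd7 had no overlapping gene in the annotation.

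Close relatives of the members and other regulators of photoreceptors had no calls either. Of 19 paralogs 15 were tested, and 0 were called, with 4 positive and 11 negative log2 fold changes and a median of -0.07. Mef2c, another MADS-box factor, averaged 228 CPM with CNP and 215 CPM with PBS, and Rora, the relative of Rorb, 151 CPM with CNP and 162 CPM with PBS. Neurod4 averaged 94.7 CPM with CNP and 99.3 CPM with PBS, and Samd11, the partner of Samd7, 84.3 CPM with CNP and 88.7 CPM with PBS. Of 20 other regulators 15 were tested and 0 called, with 3 positive and 12 negative log2 fold changes and a median of -0.17. Rax, a homeobox gene of the early eye field, averaged 198.6 CPM with CNP and 200.5 CPM with PBS. Esrrb, a nuclear receptor of rod energy metabolism, averaged 132 CPM with CNP and 134 CPM with PBS, Pias3, which modifies NR2E3, 77.9 CPM with CNP and 77.2 CPM with PBS, and Six6 60.4 CPM with CNP and 67.7 CPM with PBS.

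The genes that the factors drive had no calls between the groups. All 22 rod genes listed were tested and 0 were called, with 5 positive and 17 negative log2 fold changes and a median of -0.04. Gnb1, a transducin beta subunit, had a log2 fold change of -0.13 (SE 0.22), Rom1, a disc rim protein, -0.00029 (SE 0.28), and Gngt1, the rod transducin gamma subunit, -0.05 (SE 0.27). Of 13 cone genes, all tested, 0 were called, with 5 positive and 8 negative log2 fold changes and a median of -0.02. Opn1sw, the short-wavelength opsin, averaged 2249.5 ± 289 CPM with CNP and 2275 ± 315 CPM with PBS, and Opn1mw, the medium-wavelength opsin, 543 ± 95.7 CPM with CNP and 536 ± 66.7 CPM with PBS (SD, n = 5 each). The log2 fold changes of Gnb3 and Pde6h, the cone transducin beta and phosphodiesterase gamma subunits, were -0.03 (SE 0.10) and 0.02 (SE 0.22).

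The levels of Nr2e3 and Nrl, the members that spread most over the 10 libraries, ran along the library number in the labels. The labels do not say what the number marks, and the division at 10 was known from earlier results of these data. It left 3 CNP and 2 PBS libraries numbered above 10, and 2 CNP and 3 PBS libraries numbered up to 10. The division was tested with treatment as a term of the edgeR fit. Because it was known from these same data, its p-values, intervals and calls are descriptive and give no independent support. Of the 10 members 3 were called higher above 10, Nr2e3, Nrl and Otx2, where 14.4% of all genes were called higher. No member was called lower, where 16.7% of all genes were. The sets did not overlap for 2 members, Nr2e3 and Nrl, as was so for 9.82% of all genes in that direction.

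Nr2e3 averaged 841 ± 64.3 CPM above 10 and 557 ± 67.0 CPM up to 10 (SD, n = 5 each), a log2 difference of 0.61 (SE 0.09, 95% interval 0.41 to 0.81; edgeR adjusted p = 0.00053). Its lowest library above 10, CNP 16 at 775 CPM, lay above its highest up to 10, PBS 10 at 657 CPM. Nrl averaged 2019 ± 211 CPM above 10 and 1518 ± 110.5 CPM up to 10, a log2 difference of 0.40 (SE 0.09, 95% interval 0.21 to 0.60; edgeR adjusted p = 0.00469), with every library above 10 higher than every other. Leaving out any 1 library kept both calls, with adjusted p of Nrl at most 0.0219 (edgeR). Otx2 averaged 99.9 ± 10.8 CPM above 10 and 83.1 ± 3.66 CPM up to 10, a log2 difference of 0.27 (SE 0.09, 95% interval 0.09 to 0.46; edgeR adjusted p = 0.0273), with CNP 16, at 83.3 CPM, among the low libraries. The Otx2 call was lost without CNP 4, CNP 12, PBS 14 or PBS 18, with edgeR adjusted p of 0.0518, 0.0665, 0.0625 and 0.0683 in that order.

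The other members did not pass. Crx averaged 225 ± 20.9 CPM above 10 and 203 ± 21.1 CPM up to 10, a log2 difference of 0.17 (95% interval -0.0042 to 0.35; edgeR adjusted p = 0.128). Log2 differences were 0.18 for Mef2d, 0.13 for Samd7 and 0.08 for Rorb, and -0.09 for Thrb, -0.08 for Rxrg and -0.03 for Neurod1. With scaling by library totals alone, under which the median log2 difference of all genes was -0.23 in place of -0.02, the difference of Nr2e3 was 0.40 (edgeR adjusted p = 0.00184), that of Nrl 0.19 (adjusted p = 0.0630) and that of Otx2 0.06 (adjusted p = 0.632). Those of Crx, Mef2d, Samd7 and Rorb turned negative under that scaling, at -0.04, -0.03, -0.09 and -0.14.

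**Figure D3:**
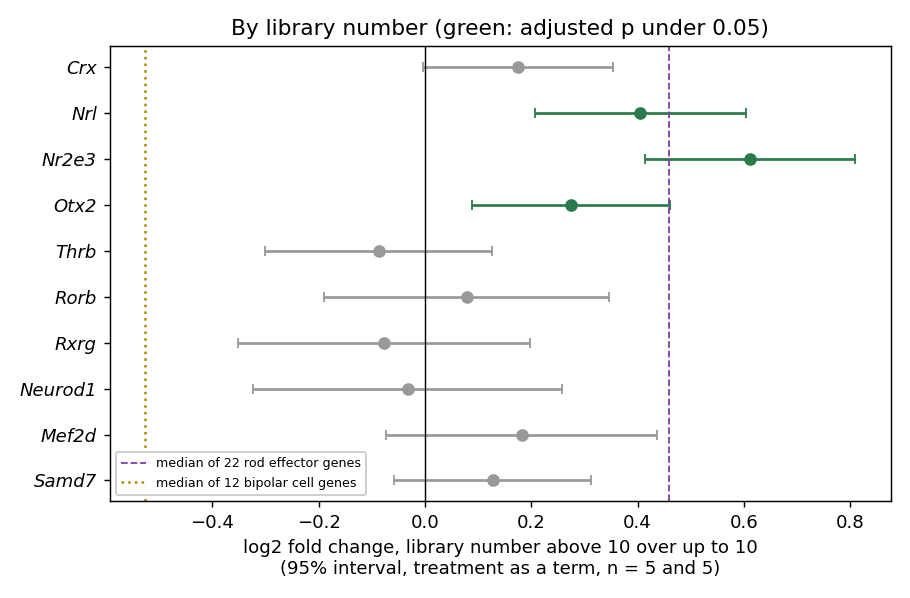
Log2 difference of each member between libraries numbered above 10 and up to 10 (n = 5 each), with its 95% interval from the edgeR fit with treatment as a term; green marks adjusted p under 0.05, and vertical lines mark the medians of 22 rod genes (0.46) and 12 bipolar cell genes (-0.53). Nr2e3 (0.61), Nrl (0.40) and Otx2 (0.27) are green, and the intervals of the other members include 0. The division at 10 was known from these same data, so the calls are descriptive.

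Treatments were also set side by side within each set of numbers. Above 10, Nrl averaged 2010.0 CPM in 3 CNP and 2033 CPM in 2 PBS libraries, and up to 10 it averaged 1576 CPM in 2 CNP and 1479 CPM in 3 PBS libraries. Nr2e3 averaged 801 CPM with CNP and 902 CPM with PBS above 10, and 551 CPM with CNP and 561 CPM with PBS up to 10. Crx had a like difference in both sets, -0.17 above 10 and -0.15 up to 10 (log2, CNP minus PBS). So had Samd7, -0.11 above 10 and -0.09 up to 10. These are means of 2 or 3 libraries, untested, from the same libraries as the pooled differences. The pooled differences did not pass for Crx or Samd7 (edgeR adjusted p = 0.9997 each). Library number as a term in the treatment fit gave 0 members and 0 genes called (edgeR), with 272 genes at an unadjusted p under 0.05.

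Other photoreceptor genes, paralogs and regulators were also set against the library number, where 14.4% of all genes were called higher and 16.7% lower. Of the 22 rod genes 18 were called higher above 10 and 0 lower, with a median log2 difference of 0.46, beside -0.02 over all tested genes. Rom1, at a log2 difference of 0.78 (edgeR adjusted p = 0.00101), and Gngt1, at 0.73 (edgeR adjusted p = 0.00153), were called, beside 0.61 for Nr2e3. Gnb1, at 0.35 (edgeR adjusted p = 0.0817), was not. Of the 13 cone genes 5 were called higher and 1 lower. Opn1sw at 0.29, Opn1mw at 0.35 and Pde6h at 0.64 were called higher, and Gnb3, at 0.01, was not called. Of the 15 paralogs tested 2 were called higher and 3 lower, near the shares over all genes. Mef2c at 0.34 and Samd11 at 0.35 were higher and Neurod4 at -0.81 lower. Of the 15 other regulators tested 1 was called higher, Pias3 at 0.23, and 5 lower, Six6 at -0.58 among them.

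Inner retinal genes were lower above 10. Of 12 bipolar cell genes 10 were called lower (median log2 difference -0.53), though the most abundant of them, Pcp2 and Gng13, were not, at 0.01 and 0.13. All 10 amacrine cell genes were called lower (median -1.06), with Calb2 at -0.78 and Slc6a9 at -0.95. Of 8 ganglion cell genes tested 7 were called lower (median -0.80), Sncg at -0.45 among them and Nefl not, at 0.17. Of 10 Müller glia genes 5 were called lower (median -0.34), Clu at -0.34 among them and Glul not, at -0.19, and of 4 horizontal cell genes 3 were, Calb1 at -0.56 and Slc4a3 at -0.87 among them.

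Pigment epithelium genes were higher above 10. Of the 10 tested 8 were called higher and 0 lower (median log2 difference 1.13). The summed level of all 10 tested was 1491 to 2545 CPM above 10 and 508 to 1317 CPM up to 10. Ttr, a thyroid hormone carrier, was at 653 to 1157 CPM above 10 and 226 to 614 CPM up to 10, and Rgr, a retinal photoisomerase, at 638 to 1097 CPM above 10 and 200.5 to 535 CPM up to 10. Rpe65, the isomerase of the visual cycle, was at 36.9 to 82.2 CPM above 10 and 11.1 to 33.2 CPM up to 10, while Best1 was at 0 to 0.651 CPM above 10 and 0.402 to 1.46 CPM up to 10. Lens genes had 0 calls (median -1.18), with summed levels of 398 to 5110 CPM above 10 and 307 to 13097 CPM up to 10, and Cryaa and Crybb2 at -0.96 and -0.76. Libraries above 10 also held fewer counts, 3328518 to 4337612, against 4325794 to 5428697 up to 10. With the pigment epithelium score as a further term in the fit, 0 members and 0 of all genes were called (edgeR), and the log2 difference of Nr2e3 was 0.32 (adjusted p = 0.333), that of Nrl 0.35 (adjusted p = 0.383) and that of Otx2 0.09 (adjusted p = 0.829). The score itself did not overlap between the number sets (4.98 to 5.70 above 10, 3.73 to 4.81 up to 10). That fit therefore cannot separate pigment epithelium from library number, and it held no term for depth. The part of depth and of these cells in the differences of Nrl, Nr2e3 and Otx2 was not tested.

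Ratios between members within a library do not depend on the scaling. For 6 ratios, chosen after the values were seen, the sets were compared by an exact permutation test over all 252 assignments, two-sided, whose smallest p is 0.00794. The ratio of Nr2e3 to Crx counts averaged 3.76 ± 0.314 above 10 and 2.76 ± 0.435 up to 10 (exact permutation p = 0.0159, adjusted over 6 ratios p = 0.0476). That of Nrl to Thrb averaged 50.8 ± 7.93 above 10 and 35.8 ± 4.89 up to 10 (exact permutation p = 0.0159, adjusted p = 0.0476). Nrl to Crx averaged 9.05 ± 1.21 above 10 and 7.53 ± 0.913 up to 10 (exact permutation p = 0.0714, adjusted p = 0.143), and Nr2e3 to Nrl 0.420 ± 0.0466 above 10 and 0.368 ± 0.0484 up to 10 (exact permutation p = 0.135, adjusted p = 0.202). The sets overlapped in all of these ratios. The ratios were picked, and the division at 10 was known, from these same data. Their p-values by number set thus restate the differences above and give no independent support. Between treatments, Nrl to Crx averaged 8.94 ± 0.957 with CNP and 7.64 ± 1.33 with PBS (exact permutation p = 0.103, adjusted p = 0.619), the smallest p of the 6.

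Members differed in how far they spread over the 10 libraries beyond counting error. The coefficient of variation of Nr2e3 was 23.2%, where counting alone gives 1.84%, and that of Nrl was 17.4%, where counting gives 1.15%. Samd7, at 9.16%, and Thrb, at 9.43%, varied least, where counting gives 4.67% and 7.60%. Rxrg varied by 11.0%, under the 12.5% that its counts alone give.

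Co-variation of the members over the 10 libraries was measured on log2 CPM for all 45 pairs. Of these 36 were positive, 6 had an unadjusted p under 0.05, and 0 passed the threshold after adjustment over the 45 (100000 permutations, two-sided). After centring on the mean of each number set, 2 had an unadjusted p under 0.05 and 0 passed. Otx2 with Samd7 gave Pearson's r = 0.82 (permutation p = 0.00542, adjusted p = 0.102) and Spearman's rho = 0.82 (permutation p = 0.00577, adjusted p = 0.0865), r = 0.77 without CNP 12 and PBS 18, the libraries farthest from the median of Otx2, and r = 0.87 within the number sets. Nr2e3 with Otx2 gave r = 0.82 (permutation p = 0.00678, adjusted p = 0.102) and rho = 0.84. This pair gave r = 0.82 without PBS 6 and CNP 8, but r = 0.45 within the number sets. With scaling by library totals alone, r was 0.35 for Nr2e3 with Otx2, 0.70 for Otx2 with Samd7 and 0.77 for Rorb with Mef2d.

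Rorb with Mef2d gave r = 0.74 (permutation p = 0.0145, adjusted p = 0.163) and rho = 0.78, and r = 0.58 without CNP 16 and CNP 20, so that the relation rests in part on these libraries; within the number sets r was 0.78. Nrl and Nr2e3 both separated by number set, so a pooled r is not given. Within the number sets, Nrl with Nr2e3 gave r = 0.13 (permutation p = 0.714), so that the rod pair did not vary together detectably there. Thrb with Rxrg, the cone pair, gave r = 0.59 (permutation p = 0.0679, adjusted p = 0.384) and rho = 0.58.

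**Figure D4:**
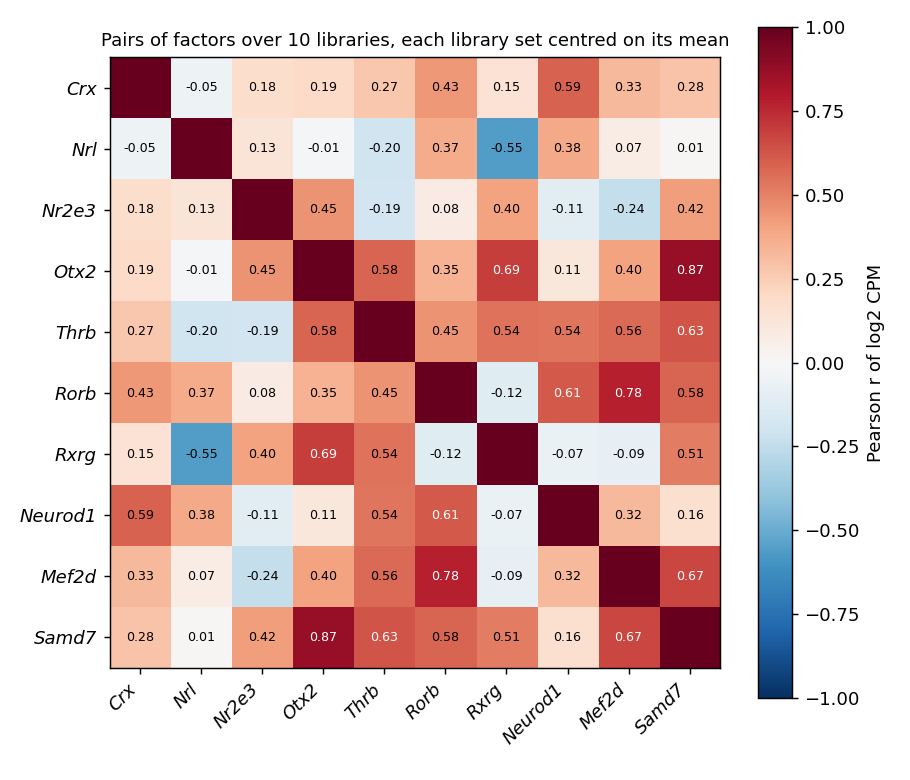
Pearson's r of log2 CPM for each pair of members over the 10 libraries, after centring on the mean of each library number set; red is positive and blue negative. The highest are Otx2 with Samd7 (0.87) and Rorb with Mef2d (0.78), while Nrl with Nr2e3 is at 0.13.

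The members were also set against 5 library measures, the scores (mean log2 CPM) of rod, bipolar, pigment epithelium and lens genes and the log2 total count. Of 50 relations 10 passed the threshold after adjustment over the 50, all of Nrl, Nr2e3 or Otx2, and 0 passed after centring on the number sets. Rod scores passed with 2 members, bipolar scores with 3, pigment epithelium scores with 3, total counts with 2 and lens scores with 0. Of those that passed, Nrl with pigment epithelium had the largest adjusted p (permutation, 0.0486), and it was lost with a prior count of 0.5 (0.0503). With 1 library left out it passed only without CNP 12 or CNP 20 (permutation, adjusted p = 0.0380 and 0.0421). For Nrl and Nr2e3 the rod, bipolar and pigment epithelium scores separated by number set as the genes did, so the values within the sets are given. Within the sets, Nr2e3 gave r = 0.71 with pigment epithelium (permutation p = 0.0461, adjusted p = 0.353), -0.64 with bipolar (permutation p = 0.0431, adjusted p = 0.353) and 0.56 with rod scores (permutation p = 0.0793, adjusted p = 0.360). Nrl gave r = 0.62 with rod scores within the sets (permutation p = 0.0973, adjusted p = 0.405).

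Of the members, Otx2 had the closest relation to depth with TMM scaling and all libraries pooled. Over the 10 libraries Otx2 gave r = -0.91 and rho = -0.99 with the log2 total count (permutation p of r 5e-05, adjusted p = 0.0025), and r = -0.89 without PBS 2 and PBS 18. Within the number sets r was -0.76 (exact permutation p = 0.00354, adjusted p = 0.158). With scaling by library totals alone it was -0.60 (adjusted p = 0.286), which did not pass. Nr2e3 gave r = -0.86 and rho = -0.85 with the log2 total (permutation, adjusted p = 0.0117), and -0.87 with totals alone as scaling (adjusted p = 0.0182). Within the number sets, r of Nr2e3 was -0.52 (exact permutation p = 0.142). Samd7 gave r = -0.75 and rho = -0.83 (permutation, adjusted p = 0.0644), but -0.07 with totals alone. Within the number sets, r of Samd7 was -0.76 (exact permutation p = 0.00632, adjusted p = 0.158), as for Otx2.

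Otx2 was also related to the bipolar score, with r = -0.88 and rho = -0.88 (permutation p = 0.00146, adjusted p = 0.0104), r = -0.91 without the 2 farthest libraries, and r = -0.70 within the number sets (permutation p = 0.0665). Its r with the pigment epithelium score was 0.81 and rho 0.84 (permutation p = 0.00369, adjusted p = 0.0205), 0.81 without the 2 farthest libraries and 0.52 within the number sets. This last call was lost without CNP 12 (permutation, adjusted p = 0.101) or PBS 14 (permutation, adjusted p = 0.0534). With scaling by library totals alone both calls were lost, r being -0.30 with the bipolar score (permutation, adjusted p = 0.650) and 0.41 with the pigment epithelium score (permutation, adjusted p = 0.595). Otx2 is expressed in photoreceptors, bipolar cells and pigment epithelium alike, and which of these cells carried its variation was not tested.

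**Figure D5:**
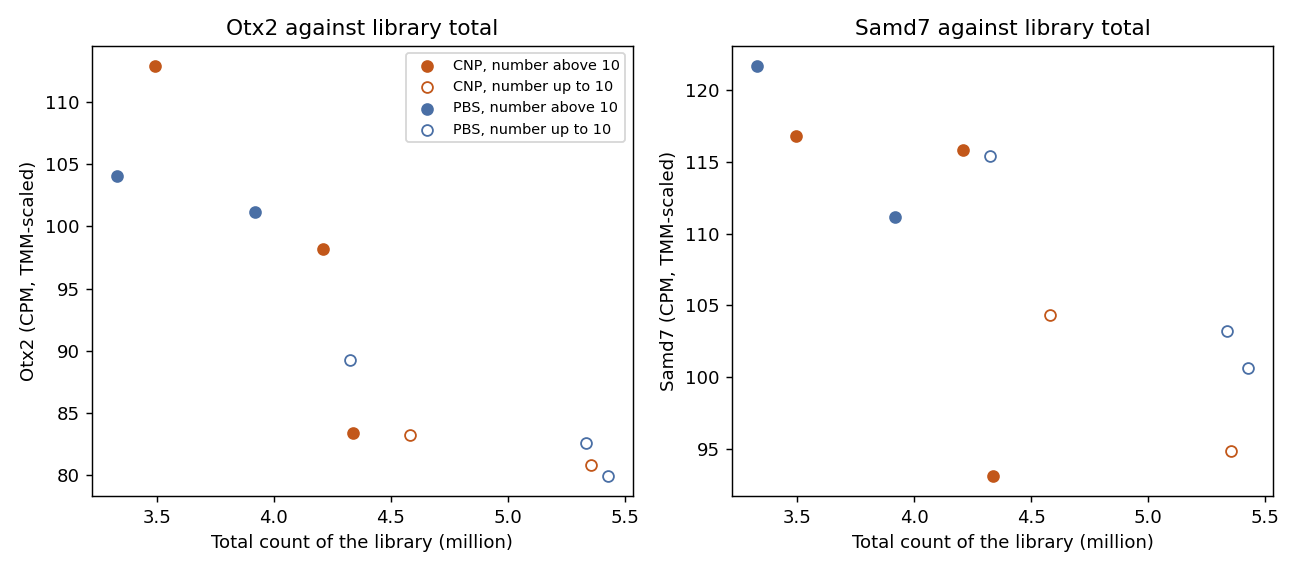
Level of Otx2 and of Samd7 in CPM scaled by TMM against the total count of each library, with CNP and PBS libraries in different colours and library numbers above 10 filled. Both are higher in libraries with fewer counts (r with the log2 total -0.91 for Otx2 and -0.75 for Samd7). With scaling by totals alone r is -0.60 and -0.07.

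The genes whose levels followed each member most closely over the 10 libraries were taken from all 11499 by Pearson's r of log2 CPM. The 2 highest for each are given as a description without a test. Picked as the highest of so many genes over 10 libraries, such r are high in part through that choice. For Nrl these were Tulp1, a gene of photoreceptor protein transport (r = 0.99, and 0.98 after centring on the number sets), and Faim (r = 0.98, and 0.89 after centring). For Nr2e3 they were Ccpg1os and 5031425E22Rik (r = 0.99 each, and 0.95 and 0.97 after centring). For Otx2 they were Tmem56 (r = 0.99, and 0.97 after centring) and Cops7b (r = 0.96, and 0.90 after centring). Crx was most like Laptm4b (r = 0.91) and Mak, a kinase of the photoreceptor cilium (r = 0.90), and Samd7 most like Rabgef1 (r = 0.94) and Xpo4 (r = 0.90). For the cone receptors the most alike were Atp2c1 (r = 0.93) and Ppp1r12a (r = 0.92) for Thrb, and Syne3 (r = 0.90) and Pcyt1a (r = 0.86) for Rxrg. Rorb was most like Dync1li1 (r = 0.93) and Vezf1 (r = 0.91), Neurod1 most like Ccnk (r = 0.91) and Tmem87b (r = 0.90), and Mef2d most like Vldlr and Dpf3 (r = 0.92 each). No member was among the 2 genes most like another member.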

How the data were processed

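Polyadenylated RNA was reverse transcribed with barcoded primers carrying molecular identifiers, per the labels' protocols. STAR, STARsolo and build GRCm39 are named, per the submitters' processing notes; the sources used here give no version, annotation or strand setting and do not say whether molecular identifiers were collapsed. The file deposited by the authors holds raw counts, whole numbers for each Ensembl gene in 10 libraries, matched to samples by the library name; 0 value columns were left unused. Symbols matched 51880 of 57186 identifiers.

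The members, gene lists and division of libraries at number 10 were chosen with earlier results of these data known. Genes were filtered with filterByExpr (minimum count 10, minimum total 15), scaled by TMM and tested by the quasi-likelihood method of edgeR 4.0.16 (R 4.3.3), two-sided with a threshold of 0.05, with Benjamini-Hochberg adjustment over all 11499 tested genes. Standard errors and 95% intervals follow from the F statistic. log2 CPM used a prior count of 2. Alternatives used DESeq2 1.42.0, limma 3.58.1 (voom), other scalings, no filter, library number as a term and each library left out. Correlations used 100000 permutations, or all 14400 orders within the number sets. Library totals of 3328518 to 5428697 counts limit precision mainly for Rxrg and Mef2d; counting error covers no amplification copies. Replicate pairs differed beyond counting noise (chi-square per degree of freedom 4.23 to 37.1), so none was a duplicate. The scripts were tested on simulated counts.

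Named genes are the members; of related lists the 4 with the highest mean CPM where none passed; of cell type lists the 2 highest; the 2 genes most like each member; and genes overlapping a member. One gene that this rule names is not reported here. Rpe65, Best1 and Gnat1 were added as defining markers of pigment epithelium and rods. Exonic lengths are from GENCODE M21 on GRCm38, so coordinates of genes counted on GRCm39 are not given; promoter sequences are from RefSeq on GRCm38.p6.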

Additional observations from a re-analysis of the deposited data

How the results depend on the processing

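For CNP against PBS, 0 genes, 0 members and 0 genes of the related lists were called under every alternative (DESeq2, voom, other scalings, no filter, added terms, single sets, each library left out), and the smallest adjusted p of a member was 0.895 (edgeR). Of 200 member fold changes under alternatives 168 kept their sign and 32 turned it, all small. With library number as a term, log2 fold changes were -0.10 for Nr2e3 and -0.049 for Otx2. With the pigment epithelium score as a term they were -0.0060 for Nrl, -0.19 for Nr2e3, -0.11 for Otx2 and 0.011 for Thrb. In libraries above 10 alone they were -0.022 for Nrl, -0.18 for Nr2e3, -0.073 for Otx2, 0.12 for Thrb and 0.035 for Rxrg, and up to 10 alone -0.025 for Nr2e3, -0.032 for Otx2 and -0.022 for Neurod1. Leaving out 1 library gave ranges of -0.17 to -0.07 for Crx, 0.01 to 0.21 for Nrl, -0.10 to 0.14 for Nr2e3, -0.080 to 0.056 for Otx2, -0.071 to 0.034 for Thrb, -0.20 to -0.00037 for Rorb, -0.16 to -0.03 for Rxrg, -0.052 to 0.15 for Neurod1, -0.14 to 0.017 for Mef2d and -0.11 to -0.03 for Samd7. The 3 members called by library number became 1 with totals as scaling and 0 with the pigment epithelium score as a further term, 2 with the numeric number term (Otx2 lost, edgeR adjusted p = 0.103), and 2 to 3 without 1 library. That further term, the numeric number term and the single sets were chosen after seeing the data. The 10 relations with library measures became 3 with totals as scaling and 0 after centring on the number sets, and 8 to 11 without 1 library. The cause of these moves was not tested. No paired analysis was possible because the groups share no replicate numbers. Depth limits Rxrg and Mef2d most, with 45 to 98 and 98 to 178 counts per library. In 20 groups of 5 libraries, 0 members had an outlying library.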
